A study of Mus musculus with 6 samples.

Results

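The 40 genes of mitochondrial fusion, fission, mitophagy, protein import, inner-membrane organisation and biogenesis described here were measured in fetal mouse hearts after the dams had inhaled titanium dioxide nanoparticles. The 40 genes were taken by symbol from a list of genes with these roles, chosen with earlier results of these data known. They stand among 35458 genes with matched transcripts, and all 40 were among the 13930 genes with enough reads to test. The exposed group (nano-TiO2) came from dams that breathed an aerosol of the particles, a material used as a white pigment, at a target of 12 mg/m3, on 6 days that were spread over 8 days and lasted 360 minutes of exposure each. The sham group came from dams that breathed filtered room air. All mice were wild-type FVB/NJ, an inbred strain. The dams were 10 weeks old and 14 entered the study. The first exposure was on gestational day 5, and fetuses were taken on gestational day 15. Each group had 3 pools of fetal hearts of both sexes. How many litters went into a pool is not stated, and p-values therefore describe variation among these 6 pools alone. The libraries were the input libraries of an N6-methyladenosine immunoprecipitation study, made from fragmented total RNA without antibody, and they measure transcript abundance.

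Mitochondria form a network that fuses and divides. The outer-membrane GTPases MFN1 and MFN2 and the inner-membrane GTPase OPA1 join organelles, and the GTPase DRP1, encoded by Dnm1l, is recruited by FIS1, MFF, MIEF1 and MIEF2 to constrict them. Damaged organelles are removed by mitophagy, which is marked by the kinase PINK1 or by receptors in the outer membrane. Nearly all mitochondrial proteins are made in the cytosol and enter through the TOM complex of the outer membrane and the TIM complexes of the inner membrane. In the fetal heart the network matures as cardiomyocytes turn to oxidative metabolism.

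Transcription of many of these genes is driven by the factors NRF1 and GABPA (an ETS family member), so their promoters were read for the motifs of both. Promoters of 300 bases around the start were available for 36 of the 40 genes (RefSeq, build GRCm38.p6). The palindromic NRF1 motif, searched on both strands, stood in the promoters of 8 of the 36 genes (22.2%), against 5.19% of all 27025 genes with a promoter. The ETS motif CCGGAAGT, also on both strands, stood in 8 of the 36 (22.2%), against 4.31% of all genes. No member held both. The ESRRA motif TCAAGGTCA was not found in these windows and occurred in 0.466% of all genes. Each motif is shown in the promoter of a gene that was called higher and of one that was called lower in nano-TiO2 hearts, with the motif in capitals. All 4 promoters lie on the plus strand.
Opa1 (called higher, NRF1 motif, chr16:29579084-29579383): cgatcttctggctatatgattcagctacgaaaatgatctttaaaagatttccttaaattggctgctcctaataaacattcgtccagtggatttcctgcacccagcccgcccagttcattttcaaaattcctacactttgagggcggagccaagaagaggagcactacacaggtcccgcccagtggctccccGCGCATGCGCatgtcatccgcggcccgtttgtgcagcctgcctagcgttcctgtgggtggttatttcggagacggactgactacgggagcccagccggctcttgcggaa
Phb (called lower, NRF1 motif, chr11:95666707-95667006): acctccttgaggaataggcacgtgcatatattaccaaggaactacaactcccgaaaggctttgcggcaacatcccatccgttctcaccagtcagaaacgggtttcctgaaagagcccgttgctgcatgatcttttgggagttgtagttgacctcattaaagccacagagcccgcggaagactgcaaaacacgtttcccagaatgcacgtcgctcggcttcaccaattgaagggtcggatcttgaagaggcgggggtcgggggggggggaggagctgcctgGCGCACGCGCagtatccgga
Mfn1 (called higher, ETS motif, chr3:32529232-32529531): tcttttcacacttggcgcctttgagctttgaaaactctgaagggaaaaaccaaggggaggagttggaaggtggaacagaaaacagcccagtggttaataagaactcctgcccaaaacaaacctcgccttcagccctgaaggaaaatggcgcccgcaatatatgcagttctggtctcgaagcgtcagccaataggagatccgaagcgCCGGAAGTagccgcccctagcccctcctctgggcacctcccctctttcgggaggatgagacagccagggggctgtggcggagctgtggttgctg
Fis1 (called lower, ETS motif, chr5:136953025-136953324): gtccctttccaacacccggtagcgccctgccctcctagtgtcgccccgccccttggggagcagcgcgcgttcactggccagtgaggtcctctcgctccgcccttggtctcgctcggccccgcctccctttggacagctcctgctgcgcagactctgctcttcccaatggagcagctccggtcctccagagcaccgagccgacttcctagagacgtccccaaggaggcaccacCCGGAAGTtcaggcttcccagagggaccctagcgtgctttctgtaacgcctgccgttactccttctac
Of the 8 genes with the NRF1 motif, 1 was called higher and 1 lower, and of the 8 with the ETS motif, 2 were called higher and 2 lower. Both motifs stood in genes of both directions.

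Salmon assigned 12881945 to 21553478 estimated reads per library in the nano-TiO2 group and 17152365 to 22720009 in the sham group. The 40 genes took 0.638% to 0.70% of the reads in nano-TiO2 libraries and 0.533% to 0.684% in sham libraries. Cardiomyocyte markers were abundant in every library, as the heart label says. Their summed level over 8 genes was 27576 to 34909 CPM (counts scaled to library size) in nano-TiO2 hearts and 38136 to 42934 CPM in sham hearts, with 1 gene called higher and 3 called lower. The summed level of 10 erythroid markers was 44902 to 93342 CPM in nano-TiO2 hearts and 121017 to 299541 CPM in sham hearts, with 6 called lower. Among these, Hbb-y was at 60.4, 3160.4 and 41.4 CPM in nano-TiO2 pools 1 to 3. In sham pools 1 to 3 Hbb-y was at 4344, 2298 and 108 CPM. Hbb-y and Hbb-bh1 were both highest in sham pools 1 and 2 and nano-TiO2 pool 2. Hepatocyte markers summed to 3.10 to 29.4 CPM in nano-TiO2 pools, against 22.2, 922 and 69.1 CPM in sham pools 1 to 3. Lung epithelium markers summed to 0.668, 283 and 1466 CPM in nano-TiO2 pools 1 to 3, against 13.0 to 144 CPM in sham pools. Endothelial markers summed to 317 to 337 CPM in nano-TiO2 pools and 278 to 294 CPM in sham pools, with 1 gene called higher. Fibroblast markers summed to 1745 to 1933 CPM in nano-TiO2 pools and 1911 to 2295 CPM in sham pools, with 1 called higher. Macrophage markers summed to 36.3 to 50.0 CPM in nano-TiO2 pools and 41.8 to 55.1 CPM in sham pools, with 1 called higher. Skeletal muscle markers summed to 1389 to 3665 CPM in nano-TiO2 pools and 2763 to 6306 CPM in sham pools, with 0 called. The part of these cell mixtures in the results was not tested, and in pooled tissue fewer cells of a type and less RNA per cell cannot be told apart.

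Of the 40 genes, 16 changed. There were 6 called higher in nano-TiO2 hearts (Mfn1, Opa1, Tomm70a, Hspa9, Ppargc1a and Gabpa) and 10 lower (Fis1, Mief2, Tomm40, Tomm7, Timm50, Hspe1, Phb, Phb2, Chchd6 and Chchd10), by edgeR's quasi-likelihood test at a Benjamini-Hochberg adjusted p under 0.05 over all genes. That is 15% and 25% of the 40, beside 15.5% called higher and 12.8% called lower among all 13930 genes tested. The median log2 fold change, nano-TiO2 over sham, was -0.18 over the 40 genes and -0.01 over all genes. All values of called genes are relative to the bulk of genes. When libraries were scaled by their totals alone the median gene stood at 0.41, 13 members were called higher and 0 lower, beside 30.7% and 0.359% of all genes. On the log2(TPM + 1) scale (TPM, a level scaled for transcript length) the median gene stood at 0.47, 15 members were called higher and 0 lower, beside 38% and 0.134%. On both scales the 10 genes called lower stayed under the median gene, and on the TPM scale 7 of them lay at 0.01 to 0.11, that is, above 0. The 6 genes called higher were above the median gene under both. All 16 were called in these same libraries, so keeping their side of the median gene is no separate support. In CPM, 9 members had all nano-TiO2 pools above all sham pools and 14 had all below, beside 23.3% and 22.4% of all genes (45.7% either way).

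**Figure D1:**
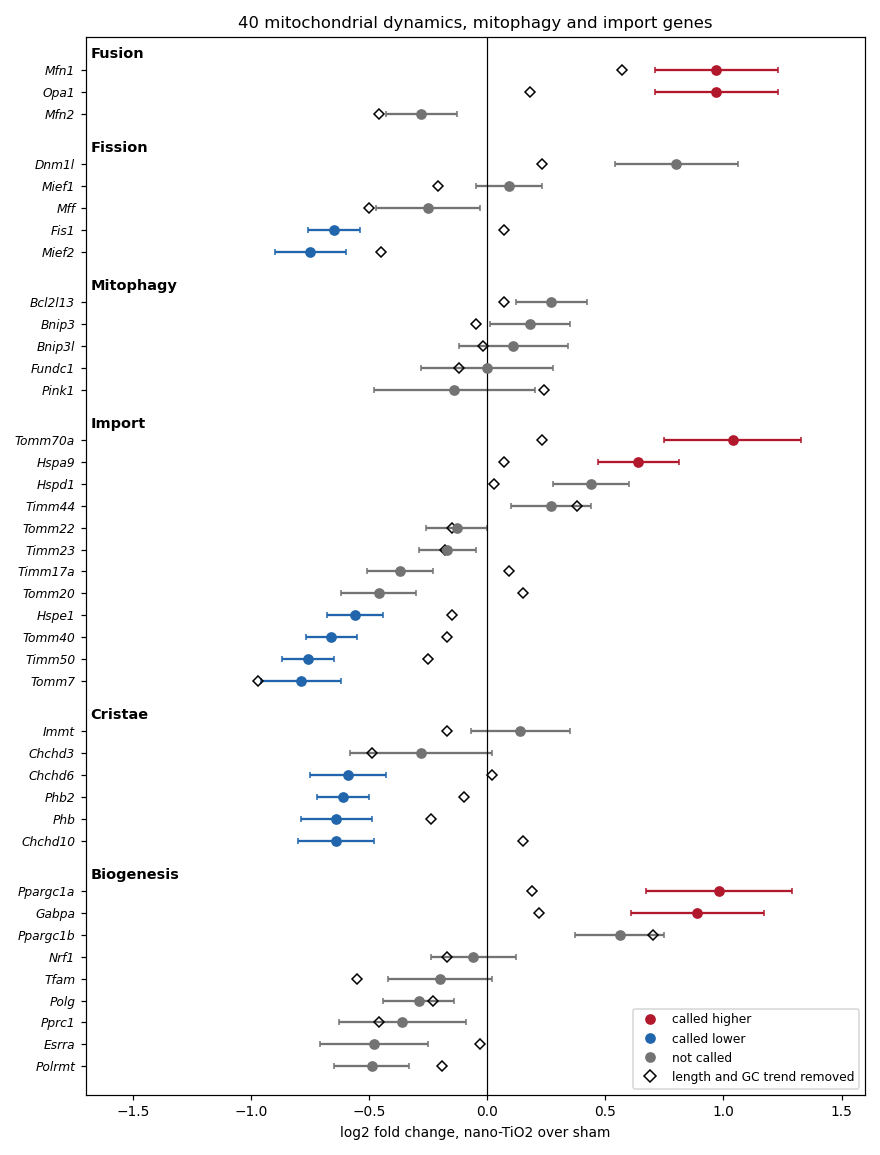
Log2 fold change (nano-TiO2 over sham) of the 40 genes by role, with filled points for the edgeR estimate, bars for its standard error and open diamonds for the estimate corrected for a trend with transcript length and GC content. Genes called higher reach 1.04 (Tomm70a) and genes called lower reach -0.79 (Tomm7), and all diamonds but that of Tomm7 belong to uncalled estimates.

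Among the 3 fusion genes, Mfn1 and Opa1 rose, beside 15.5% of all genes, and Mfn2 did not pass the test. Mfn1 was at 48.0, 23.4 and 42.0 CPM in nano-TiO2 pools 1 to 3, against 16.6, 21.1 and 20.2 CPM in sham pools 1 to 3. Every nano-TiO2 pool was above every sham pool, and nano-TiO2 pool 2 was the closest to the sham range. The log2 fold change was 0.97 (SE 0.26, adjusted p = 0.0271). Opa1, whose product also shapes cristae, was at 59.9, 35.8 and 41.3 CPM in nano-TiO2 pools, against 22.9, 17.1 and 29.7 CPM in sham pools, again without overlap. The fitted log2 fold change was 0.97 (SE 0.26, adjusted p = 0.0258). Mfn2, the more abundant mitofusin, was at 288, 234 and 232 CPM in nano-TiO2 pools, against 290.3, 268 and 359.9 CPM in sham pools. Its groups overlapped, and its log2 fold change was -0.28 (SE 0.15, adjusted p = 0.190). The calls of Mfn1 and Opa1 were both lost without nano-TiO2 pool 1, without nano-TiO2 pool 3, without sham pool 1 and without sham pool 2, where the adjusted p reached 0.0933 for Mfn1 and 0.0879 for Opa1.

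Of the 5 fission genes, 2 recruiters of DRP1 fell, beside 12.8% of all genes. The GTPase itself did not pass the test. Fis1, an outer-membrane adaptor, was at 166, 171 and 186 CPM in nano-TiO2 pools, against 264, 287 and 272 CPM in sham pools. Its pools lay close together within each group and far apart between groups, with a log2 fold change of -0.65 (adjusted p = 0.00846, SE 0.11). Mief2, a dynamics protein that binds DRP1 at the outer membrane, was at 18.9, 20.4 and 18.6 CPM in nano-TiO2 pools, against 29.7, 31.8 and 36.2 CPM in sham pools. The gene had a log2 fold change of -0.75 (adjusted p = 0.0112, SE 0.15). Dnm1l was at 71.2, 35.7 and 44.0 CPM in nano-TiO2 pools, against 24.1, 27.6 and 35.2 CPM in sham pools. The lowest nano-TiO2 pool and the highest sham pool lay side by side, and the log2 fold change of 0.80 had an adjusted p of 0.0542. In the reads of the bin table, a second deposited count of the same 6 libraries, Dnm1l was called higher at 0.85 (adjusted p = 0.0363). Mff, another outer-membrane recruiter of DRP1, was at 129, 93.1 and 101 CPM in nano-TiO2 pools, against 97.1, 116 and 172 CPM in sham pools, which overlap. Its log2 fold change was -0.25 and that of Mief1 was 0.09, with adjusted p of 0.430 and 0.659. The calls of Fis1 and Mief2 were kept whichever single pool was left out.

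None of the 5 mitophagy genes was called. With edgeR, 0 had an unadjusted p under 0.05, and DESeq2 and limma-voom also called 0. Pink1, the kinase that accumulates on damaged mitochondria, was at 73.4, 37.1 and 66.8 CPM in nano-TiO2 pools, against 51.3, 98.9 and 46.2 CPM in sham pools. Sham pool 2 was its highest pool and nano-TiO2 pool 2 its lowest, so the spread within each group exceeded the difference between groups (log2 fold change -0.14, SE 0.34). Bnip3l, a receptor known for clearing mitochondria from maturing red cells and present in heart, was at 183, 115 and 148 CPM in nano-TiO2 pools, against 98.1, 172 and 143 CPM in sham pools. Bnip3l had a log2 fold change of 0.11 (SE 0.23). Bnip3, its hypoxia-induced relative, was at 203, 207 and 178 CPM in nano-TiO2 pools, against 169, 135 and 215 CPM in sham pools, with a log2 fold change of 0.18 (SE 0.17). Bcl2l13, another outer-membrane receptor, was the one mitophagy gene whose pools did not overlap. It was at 61.3, 60.7 and 56.4 CPM in nano-TiO2 pools, against 52.1, 40.5 and 54.9 CPM in sham pools, with a log2 fold change of 0.27 (adjusted p = 0.193, SE 0.15). Fundc1, a receptor of hypoxic mitophagy, had the same mean of 22.8 CPM in both groups and a log2 fold change of 0.00 (SE 0.28). With standard errors of 0.15 to 0.34 on the log2 scale, small changes of these genes were not detectable.

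The 12 import genes split by direction, with 2 called higher and 4 called lower, beside 15.5% and 12.8% of all genes. In the outer membrane, Tomm40, the channel through which precursors pass, was at 211, 216 and 232 CPM in nano-TiO2 pools, against 335, 362 and 346 CPM in sham pools. The groups were far apart, with a log2 fold change of -0.66 (adjusted p = 0.00795, SE 0.11). Tomm7, a small subunit that sits beside the channel and also helps to hold PINK1 there, was at 82.3, 58.3 and 72.3 CPM in nano-TiO2 pools, against 111, 115 and 143 CPM in sham pools. It had the lowest log2 fold change of the 40 genes, -0.79 (SE 0.17, adjusted p = 0.0128). Tomm70a, the receptor for carrier proteins, went the other way. It was at 70.2, 29.3 and 55.8 CPM in nano-TiO2 pools, against 23.0, 29.3 and 23.3 CPM in sham pools. Pool 2 of each group stood at 29.3 CPM, and nano-TiO2 pools 1 and 3 lay well above. The log2 fold change was 1.04 (SE 0.29, adjusted p = 0.0312). Leaving out any single pool other than nano-TiO2 pool 2 took Tomm70a over the threshold, with an adjusted p of up to 0.105. Tomm20, the receptor for presequences, was at 176, 156 and 175 CPM in nano-TiO2 pools, against 198, 209.6 and 287 CPM in sham pools. The pools did not overlap, and the log2 fold change of -0.46 had an adjusted p of 0.0633. Tomm22, the central receptor, had a log2 fold change of -0.13 (SE 0.13).

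In the inner membrane, Timm50, which receives presequences from the TOM complex, fell with the smallest adjusted p of the 40 genes. It was at 136, 142 and 133 CPM in nano-TiO2 pools, against 241, 229.8 and 226 CPM in sham pools. For Timm50 the log2 fold change was -0.76 (SE 0.11, adjusted p = 0.00631), and the call was kept whichever single pool was left out. The channel gene Timm23 was at 280.1, 236 and 275 CPM in nano-TiO2 pools, against 292, 277 and 319 CPM in sham pools. These ranges overlapped by a little, with a log2 fold change of -0.17 (adjusted p = 0.333, SE 0.12). Timm17a, its partner, had a log2 fold change of -0.37 (adjusted p = 0.0753) with pools that did not overlap, and Timm44, which ties the import motor to the channel, had 0.27 (adjusted p = 0.269) with pools that did.

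The matrix chaperones also went in different directions. Hspa9, the motor chaperone that pulls precursors in, had a mean of 329 ± 56.0 CPM in nano-TiO2 hearts and 211 ± 32.4 CPM in sham hearts (SD, n = 3 each), without overlap. Its log2 fold change was 0.64 (SE 0.17, adjusted p = 0.0252), and the call was lost without nano-TiO2 pool 1, nano-TiO2 pool 3 or sham pool 2, with an adjusted p of up to 0.0928. Hspd1 and Hspe1 encode the large ring and the lid of the same folding machine and are known to share a promoter region from which they are transcribed in opposite directions. Hspd1 was at 440.4, 316 and 332 CPM in nano-TiO2 pools, against 263, 242 and 297 CPM in sham pools. Its log2 fold change of 0.44 (SE 0.16) had an adjusted p of 0.0668 and in the bin table reads it was called higher at 0.50 (adjusted p = 0.0406). Hspe1 was at 209, 182 and 207 CPM in nano-TiO2 pools, against 278, 285 and 317 CPM in sham pools. It fell, with a log2 fold change of -0.56 (adjusted p = 0.0133, SE 0.12), and the call was kept whichever single pool was left out. Processed copies of Hspd1 (5 in the annotation), Hspe1 (6) and Hspa9 (1) held at most 8 reads over all 6 libraries.

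Of the 6 genes of inner-membrane organisation, 4 fell and 0 were called higher. The prohibitins Phb and Phb2 form a ring scaffold in the inner membrane. Phb2 was at 335, 369 and 350.4 CPM in nano-TiO2 pools, against 541, 557 and 509 CPM in sham pools. For Phb2 the log2 fold change was -0.61 (SE 0.11, adjusted p = 0.00924). Phb was at 418, 352 and 415 CPM in nano-TiO2 pools, against 569, 542 and 740.1 CPM in sham pools, with a log2 fold change of -0.64 (adjusted p = 0.0189, SE 0.15). The Phb2 call was kept whichever single pool was left out, and the Phb call was lost without nano-TiO2 pool 1 or nano-TiO2 pool 3, with an adjusted p of up to 0.0576. Chchd10, an intermembrane-space protein abundant in heart, was at 747, 549 and 789 CPM in nano-TiO2 pools, against 956, 1159 and 1139 CPM in sham pools. For Chchd10 the log2 fold change was -0.64 (SE 0.16, adjusted p = 0.0237). Chchd6, a subunit of the MICOS complex that holds crista junctions, was at 61.0, 44.6 and 63.3 CPM in nano-TiO2 pools, against 81.5, 83.2 and 89.3 CPM in sham pools. Its log2 fold change was -0.59 (SE 0.16, adjusted p = 0.0264). Chchd10 lost its call without nano-TiO2 pool 1, sham pool 2 or sham pool 3, and Chchd6 without any single pool but nano-TiO2 pool 2, with adjusted p of up to 0.0775 and 0.0781. Immt, the core subunit of MICOS, was at 388, 265 and 343 CPM in nano-TiO2 pools, against 261, 245 and 399 CPM in sham pools. Its groups overlapped (log2 fold change 0.14, SE 0.21). Chchd3, which binds Immt, ranged from 157 to 287 CPM in nano-TiO2 hearts and from 198 to 404 CPM in sham hearts (log2 fold change -0.28, SE 0.30).

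Of the 9 biogenesis genes, 2 were called higher and 0 lower with edgeR, beside 15.5% and 12.8% of all genes. Of the 9, 4 had an unadjusted p under 0.05, DESeq2 called 3 higher and 1 lower, and limma-voom 1 higher and 1 lower. Ppargc1a, the coactivator that drives mitochondrial biogenesis in heart, was at 101, 40.4 and 71.1 CPM in nano-TiO2 pools, against 29.2, 33.6 and 44.8 CPM in sham pools. Nano-TiO2 pool 2 lay below sham pool 3, and the log2 fold change was 0.98 (SE 0.31, adjusted p = 0.0471). Gabpa, the DNA-binding subunit of an ETS factor, was at 39.1, 22.5 and 26.3 CPM in nano-TiO2 pools, against 12.3, 13.5 and 21.6 CPM in sham pools. For Gabpa the log2 fold change was 0.89 (SE 0.28, adjusted p = 0.0455), and it was not called in the bin table reads (0.59, adjusted p = 0.0573). Both calls were lost without nano-TiO2 pool 1, nano-TiO2 pool 3, sham pool 1 or sham pool 2, with adjusted p of up to 0.159 for Ppargc1a and 0.157 for Gabpa. Ppargc1b, the relative of Ppargc1a, was at 46.3, 31.6 and 38.9 CPM in nano-TiO2 pools, against 22.8, 24.7 and 31.6 CPM in sham pools. Its log2 fold change of 0.56 had an adjusted p of 0.0607, and the bin table reads gave 0.64 (adjusted p = 0.0388). Polrmt, the RNA polymerase of mitochondria, was at 28.7, 34.6 and 26.9 CPM in nano-TiO2 pools, against 48.1, 40.4 and 38 CPM in sham pools. The pools did not overlap, and the log2 fold change of -0.49 had an adjusted p of 0.0532. Tfam, which packs and transcribes mitochondrial DNA, was at 34.1, 24.4 and 33.5 CPM in nano-TiO2 pools, against 27.3, 34.2 and 44.4 CPM in sham pools. Its groups overlapped (log2 fold change -0.20, SE 0.22). The polymerase gene Polg, the factors Nrf1 and Esrra and the coactivator Pprc1 had log2 fold changes of -0.48 to -0.06, none called.

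**Figure D2:**
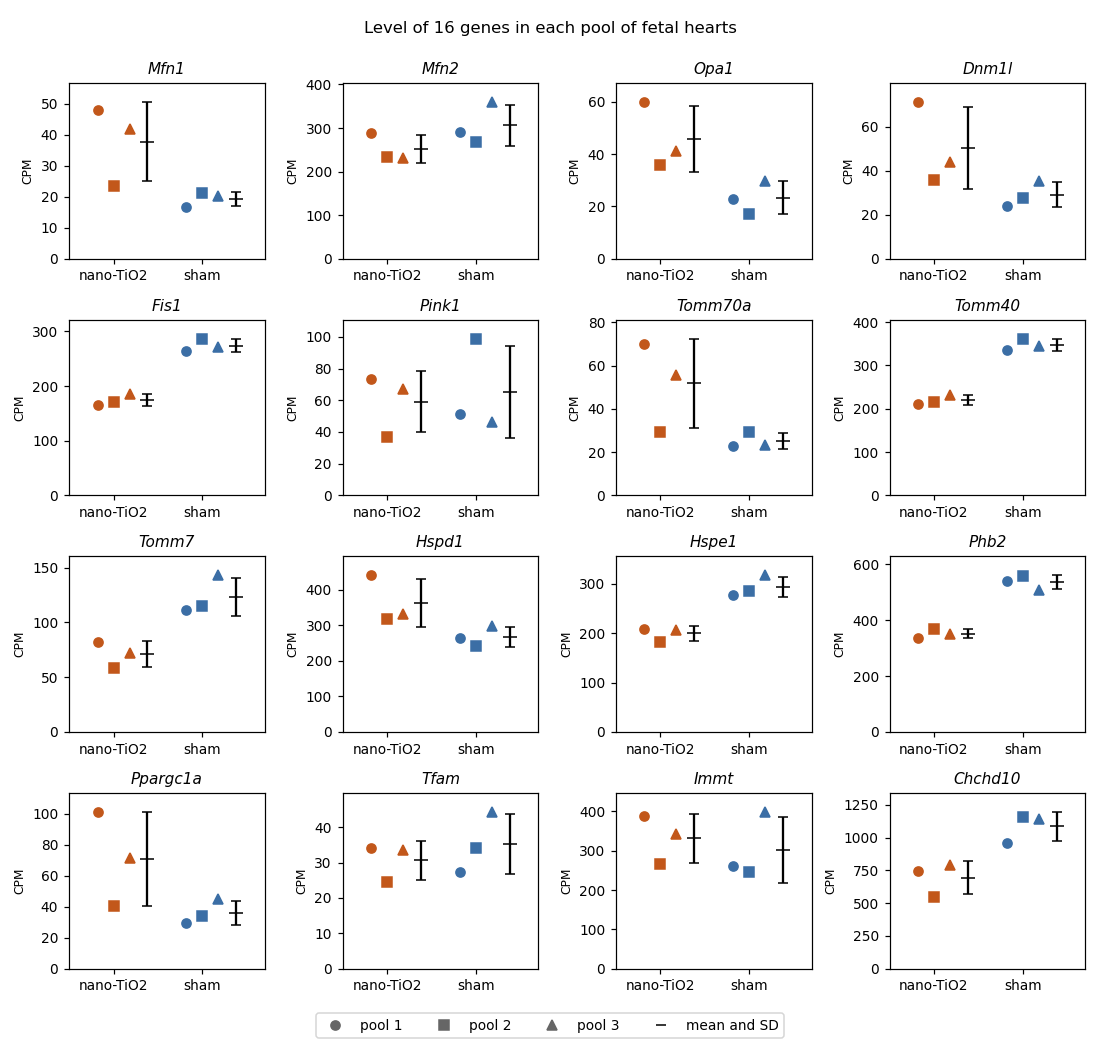
Level in CPM of 16 of the genes in each of the 3 nano-TiO2 pools (left, orange) and 3 sham pools (right, blue), with a bar for the mean and SD of each group. Fis1, Tomm40 and Phb2 separate the groups with little spread, Pink1 and Immt overlap, and nano-TiO2 pool 2 (square) lies nearest to the sham pools for Mfn1, Dnm1l, Tomm70a and Ppargc1a.

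The direction of change ran with the length and base composition of its transcripts. The 6 genes called higher had lengths of 1994 to 5887 bases (weighted by transcript level) and a GC content of 40.6% to 45.8%. The 10 genes called lower had lengths of 774 to 2359 bases and a GC content of 44.0% to 60.9%. Across the 40 genes Spearman's rho was 0.61 between log2 fold change and length and -0.68 between log2 fold change and GC content. Across all genes tested the values were 0.52 and -0.55. These are correlations across genes of the same 6 libraries, and genes are not independent replicates. The tested genes were split into 3 classes of equal size by length, at 1817 and 3062 bases. Of the 19 members in the shortest class, 9 were called lower and 0 higher, beside 26.4% lower and 2.09% higher among all genes of that class. Of the 11 members in the longest class, 4 were called higher and 0 lower, beside 32.7% and 3.49%. The middle class held 10 members, of which 2 were called higher and 1 lower, beside 11.6% and 8.44%. The median log2 fold change of members was -0.48, -0.03 and 0.56 in the shortest, middle and longest class, beside -0.34, 0.04 and 0.48 over all genes of each. The effective length that Salmon used for the main transcript of each member differed between the groups by -0.05 to 0.07 in log2 (nano-TiO2 over sham).

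When the trend of each library with transcript length and GC content was taken out, 0 of the 40 genes were called higher and 1 lower, beside 1.51% and 2.26% of all genes. Of the 40, 8 had an unadjusted p under 0.05 after this correction, and 4 of these (Mfn2, Mff, Pprc1 and Tfam) had been above 0.05 without it. Without nano-TiO2 pool 2 the same correction called 2 members higher, Mfn1 and Ppargc1b, and 1 lower. Over all genes that fit called 417 higher and 620 lower, against 210 and 315 with all pools. The 1 member called lower with all pools was Tomm7, with a log2 fold change of -0.97 (adjusted p = 0.0107, SE 0.11). Its transcript is short, at 1125 bases, but has a GC content of 44.0%, the lowest among the genes called lower. In the reads of the bin table with the same trend removed it was at -0.91 (adjusted p = 0.00782), the one member called there, beside 1.97% of all genes called higher and 2.28% lower. Its adjusted p under this correction was 0.0617 without nano-TiO2 pool 1, 0.0694 without nano-TiO2 pool 3, 0.0534 without sham pool 1 and 0.0537 without sham pool 2. Over all genes those fits called 1 to 2 higher and 2 to 3 lower. With all pools the next smallest adjusted p of the 40 genes belonged to Tfam, at a log2 fold change of -0.55 (adjusted p = 0.0649). Fis1, Chchd6 and Chchd10 moved to 0.07, 0.02 and 0.15, above 0, and Mfn1 kept a value of 0.57 (adjusted p = 0.114) while Opa1 came to 0.18 and Tomm70a to 0.23. The correction takes out any difference that runs with length and GC content, whatever its source, and the source was not tested.

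**Figure D3:**
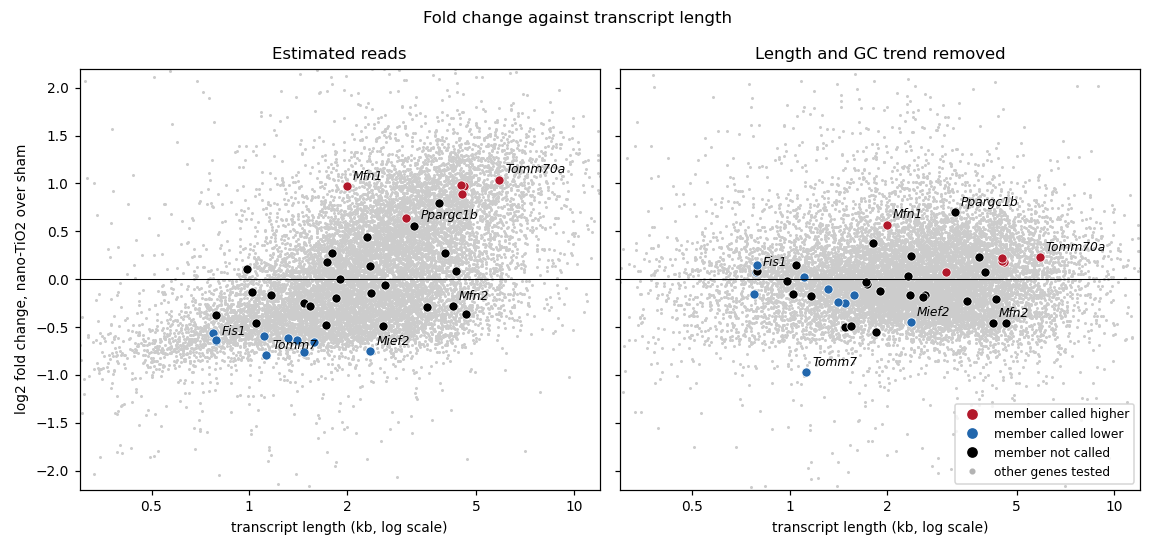
Log2 fold change (nano-TiO2 over sham) against transcript length in kb on a log axis for all tested genes (grey) and the 40 members (coloured by call), from the estimated reads on the left and after removal of the length and GC trend on the right, with genes outside the axes not drawn. On the left members called lower lie at short lengths and members called higher at long lengths, and on the right Tomm7, at -0.97, is the lowest member and the one still called.

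Partner genes were compared inside each pool as log2 ratios of TPM, which do not depend on how libraries are scaled to each other. For 6 pairs a ratio was computed, with an exact two-sided permutation test, for which 3 against 3 pools cannot give a p below 0.10. Mfn1 over Mfn2 was at -1.72, -2.04 and -1.17 in nano-TiO2 pools, against -3.04, -2.82 and -3.85 in sham pools. The groups did not overlap, and the difference was 1.59 (exact p = 0.10, 0.12 after adjustment over the 6 ratios). With CPM the difference was 1.19, also without overlap. A retained-intron isoform of 246 bases, Mfn1-210, held at most 5.6% of the gene's reads in any pool. It gave 11.5 of the 24.5 TPM of Mfn1 in nano-TiO2 hearts and 2.09 of 6.26 TPM in sham hearts. Hspd1 over Hspe1 was at -0.79, -1.15 and -1.26 in nano-TiO2 pools, against -1.95, -2.09 and -1.96 in sham pools. The sham pools lay close together (SD 0.08), the groups did not overlap, and the difference was 0.93. Dnm1l over Fis1, Mief1 over Mief2 and Tomm70a over Tomm40 differed by 1.31, 0.93 and 1.50, also without overlap and with the same exact p of 0.10. Immt over Chchd3 averaged -0.15 ± 0.19 in nano-TiO2 hearts and -0.51 ± 0.24 in sham hearts (SD, n = 3 each), with overlap and an exact p of 0.30. With CPM in place of TPM its groups did not overlap (difference 0.41). By level-weighted length the gene on top has the longer transcripts in every pair but Mfn1 over Mfn2. There Mfn1 has 1994 bases and Mfn2 4227, but the isoforms with most reads, Mfn1-201 and Mfn2-201, have 4562 and 4341. The GC content was 43.1% for Mfn1 and 53.4% for Mfn2. The part of length and GC content in these ratios was not tested.

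**Figure D4:**
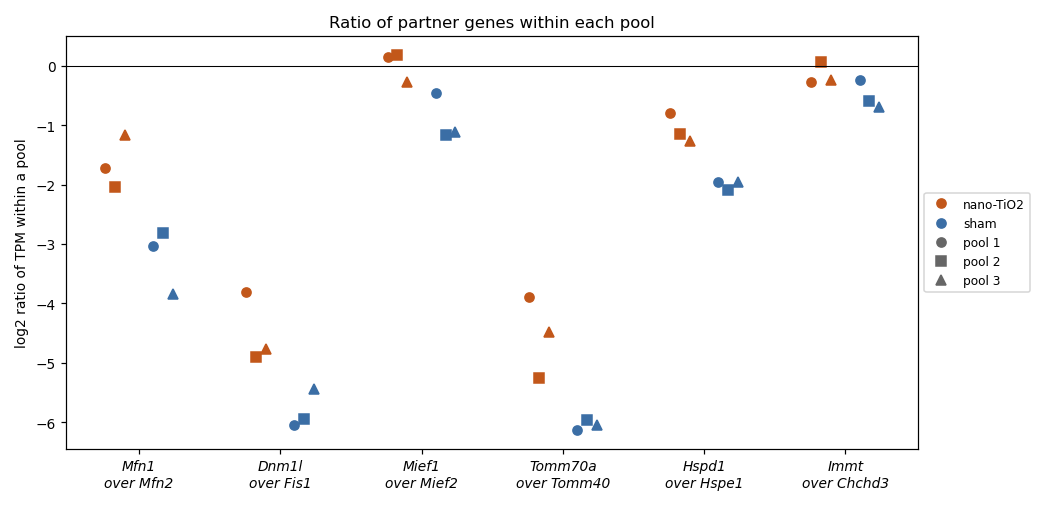
Log2 ratio of TPM of 6 pairs of partner genes within each nano-TiO2 pool (orange, left) and each sham pool (blue, right). The ratio was higher in every nano-TiO2 pool than in every sham pool for the first 5 pairs, by 0.93 to 1.59 on average, and overlapped for Immt over Chchd3.

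The pools differed in how far they carried these calls. Without nano-TiO2 pool 1, 0 members were called higher and 7 lower, beside 5.97% and 3.04% of all genes. Without nano-TiO2 pool 3 there were 0 and 8, beside 7.35% and 3.87%. Without sham pool 1 there were 1 and 9, beside 10.2% and 3.92%, and without sham pool 2 there were 0 and 8, beside 7.08% and 2.93%. Leaving out nano-TiO2 pool 2 gave 9 higher and 11 lower, beside 15.3% and 14.6%, and leaving out sham pool 3 gave 8 and 8, beside 15.2% and 8.0%. The shares over all genes thus moved with the pool left out as well. A set of 7 genes (Fis1, Mief2, Tomm40, Tomm7, Timm50, Hspe1 and Phb2) was called lower in all 6 of these fits. The fits share pools, and the share of all genes called in all 6 is not given here. With the length and GC trend removed and all pools kept, Tomm7 alone of the 7 was called. When sham pool 2, the highest in hepatocyte markers, and nano-TiO2 pool 3, the highest in lung markers, were left out together, 0 members were called and 0 genes of any kind. In that fit 16 members had an unadjusted p under 0.05, beside 3350 of all genes. The 16 genes called with all pools are a separate count, and all kept their sign. The pools left in that fit are among those that gave the calls, so the shared sign is no separate support.

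**Figure D5:**
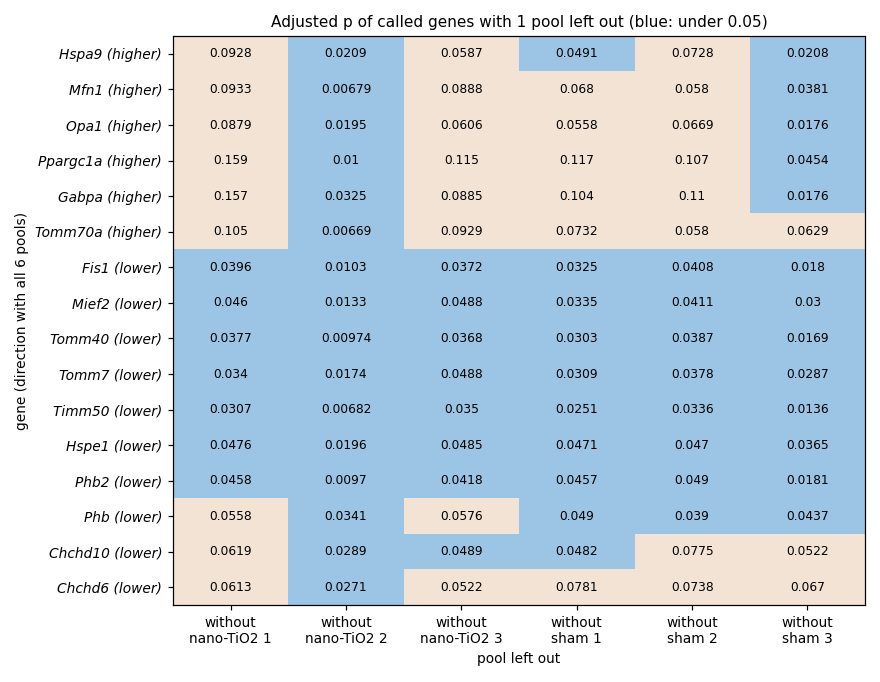
Adjusted p (edgeR) of the 16 called genes when each of the 6 pools is left out in turn, with blue cells under 0.05. The 7 genes from Fis1 to Phb2 stay under 0.05 in every column, and none of the 6 genes called higher does.

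Within their groups the same pools tended to be low or high. Nano-TiO2 pool 2 was the lowest of the nano-TiO2 pools for 27 of the 40 genes (67.5%, beside 41.9% of all genes), and nano-TiO2 pool 1 was the highest for 25 (62.5%, beside 38.6%). Sham pool 3 was the highest of the sham pools for 25 (62.5%, beside 39.2%), and sham pool 1 was the lowest for 23 (57.5%, beside 32.6%). The spread was widest for Ppargc1a and Tomm70a, whose highest nano-TiO2 pool was 2.50 and 2.40 times the lowest.

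On the per-length scale the 40 genes spanned a wide range of levels. Chchd10 was the most abundant, with a mean of 1510.4 TPM in nano-TiO2 hearts and 1474 TPM in sham hearts, followed by Timm17a, Phb, Hspe1 and Phb2 at 391 to 423 TPM over all pools. For Timm17a a retained-intron isoform of 565 bases gave 287 TPM in nano-TiO2 hearts and 242 TPM in sham hearts. Its coding isoform of 7280 bases gave 17.7 and 14.9 TPM. Gabpa was the least abundant, at 7.44 TPM in nano-TiO2 hearts and 2.88 TPM in sham hearts. Among the mitofusins Mfn2 averaged 67.5 TPM and Mfn1 15.4 TPM over all pools. The GTPases Dnm1l and Opa1 averaged 10.3 and 7.87 TPM, against 325 TPM for the adaptor Fis1. Fis1, called lower relative to the bulk of genes, averaged 327 TPM in nano-TiO2 hearts and 323 TPM in sham hearts, on a scale where the median gene was higher in nano-TiO2 hearts.

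At the level of transcripts, 123 isoforms of the 40 genes had enough reads to test. Of these, 4 were called lower and 0 higher (edgeR), beside 1.10% lower and 0.921% higher of all 30409 transcripts, and 31 had an unadjusted p under 0.05. The 4 were the protein-coding isoforms that carried most reads of Fis1 (log2 fold change -0.69), Tomm40 (-0.71), Timm50 (-0.81) and Phb2 (-0.66), with adjusted p of 0.0475, 0.0494, 0.0475 and 0.0476. The isoform Opa1-206, with 6230 bases, had a log2 fold change of 1.11 and an adjusted p of 0.0547. A short non-coding isoform, Bnip3l-204, had 1.00 (adjusted p = 0.0713), while the gene Bnip3l as a whole had 0.11. The split of reads among isoforms is Salmon's estimate.

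Along the transcripts, 1403 bins of about 25 bases, in 35 of the genes, passed a mean of 10 in the deposited table. By limma, 101 bins were called lower (7.20%) and 20 higher (1.43%), beside 4.48% and 1.14% of all 245114 bins. Neighbouring bins share reads and are not independent. Few bins were tested in most genes called higher: 0 in Opa1, 1 in Tomm70a, 4 in Mfn1, 5 in Gabpa and 6 in Ppargc1a, but 109 in Hspa9. Genes called lower had from 2 (Mief2) to 71 (Phb). The bins of Gabpa had a median log2 difference of 0.02, with 3 above 0 and 2 below. The lower bins lay in Tomm40 (21 of 63), Timm50 (19 of 56), Chchd10 (15 of 29), Phb2 (14 of 49), Phb (12 of 71), Fis1 (11 of 33), Tomm7 (6 of 11), Chchd6 (2 of 39) and Mfn2 (1 of 170). In Tomm40, Timm50, Phb, Phb2, Fis1, Tomm7, Chchd10 and Hspe1 every tested bin had a log2 difference below 0. The higher bins lay in Hspa9 (15 of 109) and Hspd1 (5 of 87), and all 109 bins of Hspa9 were above 0.

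Among 79 further genes of the same pathways, 77 could be tested, and 4 were called higher and 20 lower (5.19% and 26.0%, beside 15.5% and 12.8% of all genes). Their median log2 fold change was -0.27. Import genes held 12 of the 20, and 29 import genes were tested with 0 called higher. Romo1, an inner-membrane protein linked to the TIM complexes, was at 88.6, 73.8 and 81.3 CPM in nano-TiO2 pools, against 135, 141 and 132 CPM in sham pools (log2 fold change -0.75, adjusted p = 0.00761). Gfer, the oxidase of the intermembrane disulfide relay, had -0.73 (adjusted p = 0.00874). Of the cristae genes, Chchd2, the partner of Chchd10, had -0.68 (adjusted p = 0.0100) and 2410015M20Rik had -0.72 (adjusted p = 0.0116). Fkbp8, a mitophagy receptor, had -0.65 (adjusted p = 0.00924) and Mul1, an outer-membrane ubiquitin ligase, -0.61 (adjusted p = 0.0117). The 4 called higher were Trak2, which links mitochondria to motors (0.89, adjusted p = 0.0105), Tbk1, a kinase of autophagy receptors (0.68, adjusted p = 0.0417), the nuclear receptor gene Esrrg (1.38, adjusted p = 0.0173) and Sirt1, a deacetylase that acts on PGC-1α (1.06, adjusted p = 0.0206). Of the fusion genes of this list, Slc25a46 and Parl had 0.70 and -0.18 (adjusted p = 0.0834 and 0.244). Transcript length again ran with direction, since 17 of the 20 lower genes were in the shortest length class. With the length and GC trend removed, 6 of the 77 (7.79%, beside 2.26%) were called lower and 0 higher, namely Dnajc19, Grpel1, Samm50, Chchd4, Apool and Minos1, named after their values were seen. Of these, 0 were called under the same correction without nano-TiO2 pool 1, nano-TiO2 pool 3, sham pool 1 or sham pool 2. Over all genes those fits called 1 to 2 higher and 2 to 3 lower. Without sham pool 3, 1 of the 6 (Chchd4) was called, beside 19 higher and 30 lower over all genes. Without nano-TiO2 pool 2 all 6 were called, beside 417 and 620.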

How the data were processed

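RNA abundance was read from the 6 input libraries. The authors deposited Salmon tables with estimated counts and length-scaled TPM values for 116747 transcripts, of which 115685 matched GENCODE M21, used here for symbols, lengths and GC content only. They also deposited a table of signal in bins that start every 25 bases, divided by 1 size factor per library, from which whole reads were recovered for 100% of values within 0.001. Per the submitters' processing notes, HISAT2 2.2.1, Salmon 1.5.2 and DESeq2 1.34.0 were used, with build GRCm39. No source used here gives their settings or the strand rule of the bin table.

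Estimated counts were summed per gene, rounded, filtered with filterByExpr, scaled by TMM and tested with edgeR 4.0.16 (robust quasi-likelihood, group as the only term, R 4.3.3), with Benjamini-Hochberg adjustment over all tested genes and a threshold of 0.05. CPM values use the TMM factors. DESeq2 1.42.0, limma 3.58.1 (voom, log2(TPM + 1) with a mean TPM of at least 1, and bins with a mean of at least 10) and a trend over length and GC content fitted per library (mgcv 1.9.3) served as alternatives, with other scalings and filters, a replicate block and each pool left out. The reads of the bin table gave a count test as an added alternative, which called 15.4% of 18850 genes higher and 11.2% lower. That table with the trend removed, the trend removed with 1 pool left out, and CPM in the ratios were also chosen after seeing the data. Simulated data for 13633 genes of this comparison, with 200 changed, gave recovery of 65% at a log2 change of 1 and 98% at 2 with edgeR, with 10 false calls. DESeq2 gave 38 false calls there (17.5% of its calls). The simulation drew each gene separately, without a trend with length or GC content, so it cannot show the error under such a trend.

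The 40 members and all lists were chosen with earlier results of these data known. Per-pool values are given for a set of members named whatever their result, for up to 4 members per role with the smallest p, and for up to 2 other pathway genes per role. Whether pools with the same number belong together was checked by the correlation of their deviations from the group means, which was -0.39, 0.02 and -0.08, so the numbers were not taken as pairs.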

Additional observations from a re-analysis of the deposited data

How the results depend on the processing

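The 40 genes had 6 calls higher and 10 lower. Leaving out single pools gave 0 to 9 higher and 7 to 11 lower, and for the other pathway genes 1 to 6 higher and 8 to 18 lower. By role these fits gave 0 to 2 fusion, 0 to 1 fission, 0 to 3 import and 0 to 3 biogenesis genes called higher, 1 to 4 cristae and 0 to 1 biogenesis genes called lower, and a fission median, minus that of all genes, of -0.40 to 0.00. Leaving out sham pool 2 and nano-TiO2 pool 3 together gave 0 calls in every group. Library totals alone gave 13 higher and 0 lower (fission 1 and 0, mitophagy 3 higher, import 4 and 0, cristae 0 lower), and 13 and 0 for the other pathway genes. Log2(TPM + 1) and log2(TPM + 0.1) each gave 15 and 0 (fission 2 and 0, mitophagy 3 higher, import 4 and 0, cristae 1 and 0), and 20 and 0 for the other pathway genes. With log2(TPM + 1) the medians minus that of all genes were -0.13 for fission, -0.09 for import and -0.10 for the other pathway genes. On both TPM scales Fis1 (0.02), Tomm40 (0.01), Hspe1 (0.11), Phb (0.06), Phb2 (0.06), Chchd6 (0.07) and Chchd10 (0.03) turned positive. Upper-quartile factors, the stricter filter, DESeq2 and the bin table reads each called 1 fission gene higher, the bin table with a fission median of -0.13. DESeq2 called 1 biogenesis gene lower, limma-voom 1 higher and 1 lower, and no filter 1 higher.

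Once the trend with length and GC content was removed, 0 members were called higher and 1 lower, an import gene, with 0 in the other roles and 0 and 6 of the other pathway genes. The medians were 0.21 for fusion, -0.03 for import, -0.10 for cristae and -0.12 for the other pathway genes, and Fis1 (0.07), Chchd6 (0.02) and Chchd10 (0.15) turned positive. The bin table with the trend removed gave 0 and 1, with 0 and 5 of the other pathway genes, medians of 0.29, 0.02, -0.07 and -0.12, and Fis1 at 0.03, Chchd6 at 0.00, Chchd10 at 0.10 and Gabpa at -0.15. The replicate block left 2 members higher (1 fusion, 1 import, 0 biogenesis) and 2 other pathway genes. The block with the trend removed gave 0 and 1, with 0 and 2 of the other pathway genes, medians of 0.22, -0.03, -0.10 and -0.12, and Fis1 at 0.07 and Chchd10 at 0.13. The cause of these changes was not tested. The 3 pools per group limit the precision, and intervals cover the spread between pools only.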
